A study of Homo sapiens with 6 samples.

Results

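The genes described here encode intermediate filament proteins: the keratins KRT7, KRT8, KRT17, KRT18 and KRT19, vimentin (VIM), nestin (NES) and the nuclear lamins LMNA, LMNB1 and LMNB2. These 10 genes were chosen by their symbols, and every array probe carrying one of the symbols was taken, which gave 13 of the 47231 probes and 10 of the 31334 symbols on the array. The choice was made with the fold changes of the contrast below already known, so the values and adjusted p of these genes are a description of the arrays and support nothing by themselves. They were measured in U2OS, a human osteosarcoma cell line, in 3 samples with a stable knockdown of TUSC4 by shRNA and in 3 samples with a control shRNA, which the labels also call parental cells. All 6 samples were total RNA, labelled with biotin and hybridised to Illumina bead arrays at adjacent positions of 1 chip, with each group in neighbouring places, so chip position and group cannot be told apart. TUSC4, now named NPRL2, is a subunit of the GATOR1 complex, which restrains the growth kinase mTORC1. Nothing in the labels says whether the 3 samples of a group were separate cultures, or whether the knockdown line is a clone, so the spread between samples may be technical.

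Intermediate filaments are built from rod-shaped proteins that coil around each other and assemble into ropes. Keratins form obligate heterodimers of a type I chain (KRT17, KRT18, KRT19) with a type II chain (KRT7, KRT8) and are typical of epithelia, where KRT8 and KRT18 are the usual partners of simple layers. Vimentin is the filament of mesenchymal cells, nestin is a large filament protein of progenitor cells that assembles together with vimentin, and lamins form the meshwork under the inner nuclear membrane. U2OS derives from bone, a mesenchymal tissue.

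Signals are given as deposited, as a linear average over beads that has not been normalized across the arrays. Log2 fold changes set TUSC4 shRNA over control shRNA after background correction with an offset of 50 and quantile normalization, and carry limma's moderated standard error (SE). A gene was called at a Benjamini-Hochberg adjusted p under 0.05 over the 15300 genes tested. In bulk RNA, fewer cells expressing a gene and less RNA per cell cannot be told apart. Over all genes, 26.9% were called, 13.6% lower and 13.3% higher in the knockdown, and for 20.5% every knockdown value lay below every control value. Each array had 20378 to 21485 probes above its estimated background. Correlations of log2 intensity were 0.991 to 0.996 within groups and 0.979 to 0.984 between them. TUSC4 itself fell by 1.18 ± 0.10 on the log2 scale (SE, limma adjusted p = 9.16e-07).

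Of the 10 genes, 8 had a probe above background and were tested, each above background on all 6 arrays, and KRT7 and KRT19 were not. Among the 8, limma called 5 lower in the knockdown (KRT17, NES, KRT8, LMNB2 and KRT18), beside 13.6% of all genes, and 0 higher, beside 13.3%, while 3 were not called (LMNA, LMNB1 and VIM). In 6 of the 8 every knockdown value lay below every control value, beside 20.5% of all genes. The median over the 8 was -0.36 on the log2 scale and 0.00 over all genes. Since the same contrast was known when the genes were chosen, nothing is read from these counts against the background shares.

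**Figure D1:**
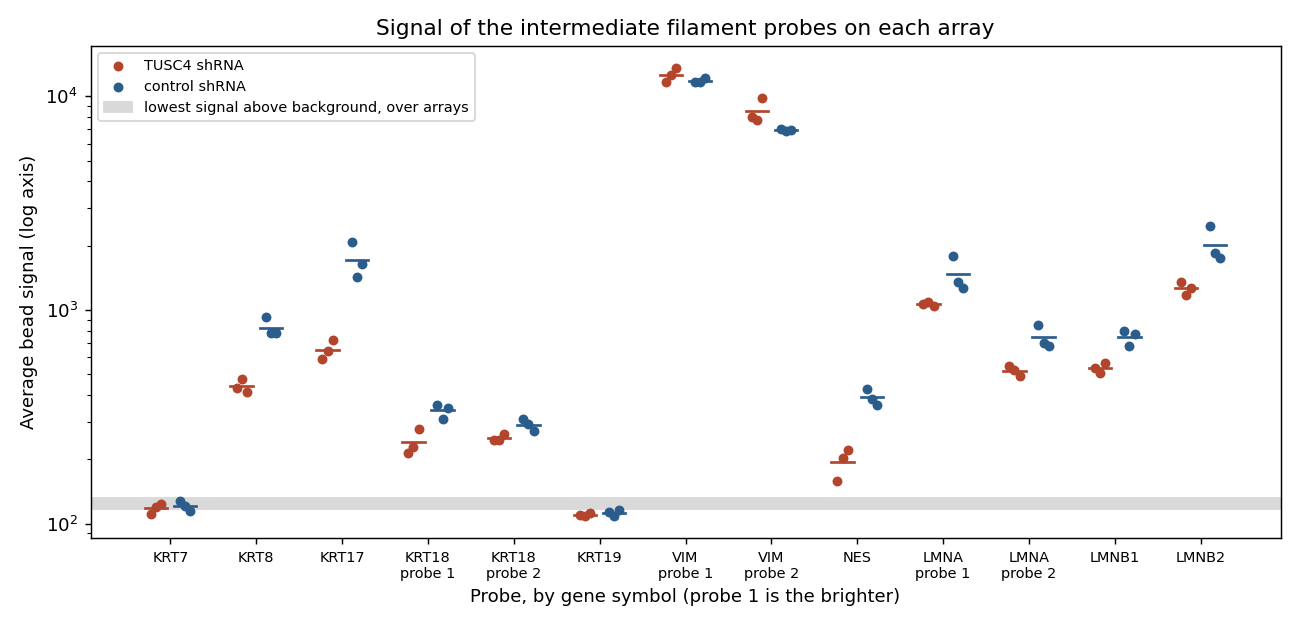
Average bead signal (log axis) of each of the 13 intermediate filament probes, with 1 point per array, TUSC4 shRNA left of control shRNA and a bar at each group mean. KRT17, NES and KRT8 show the widest gaps between the groups. KRT7 lies at or below the grey band of the lowest signals above background (117 to 132 over the arrays), and KRT19 lies below the band.

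KRT17, a type I keratin of basal and stressed epithelium, had the largest fall of the 8. Its signal was 588, 643 and 727 in the TUSC4 shRNA samples, against 2083, 1429 and 1643 in the control samples. Every knockdown value lay below every control value, and the spread was wider among the controls. The normalized log2 means were 9.39 ± 0.11 in the knockdown and 10.57 ± 0.16 in the controls (SD, n = 3 each), and KRT17 fell by 1.18 ± 0.11 (SE, limma adjusted p = 1.61e-06). The knockdown level came to 44.2% of the control level on a scale that still contains the offset. KRT17 has near-identical copies in the genome, and the array holds 2 probes for one of them, KRT17P3, looked up after the values of KRT17 had been seen. The brighter was above background on all 6 arrays, with a mean signal of 168 in the knockdown and 300.1 in the controls. It fell by 0.81 ± 0.10 on the log2 scale (limma adjusted p = 1.76e-05 in the fit on every probe). The dimmer was above background on 0 arrays, with mean signals of 110 and 117. Which copy each probe reports cannot be told apart from these values.

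The genes whose normalized pattern over the 6 arrays lay nearest to that of KRT17, by the root mean square difference of log2 values centred on each gene's mean, were GAGE6 (0.0821), ARHGAP28 (0.0857) and C1orf198 (0.0920). Their log2 fold changes were -1.29, -1.06 and -1.17. Nearness by this measure calls for a similar difference between the groups, so it says nothing of shared regulation with KRT17. GAGE6 belongs to a family of near-identical cancer-testis genes, so the copy measured is uncertain.

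KRT8, the type II keratin of simple epithelia, had signals of 433, 478 and 415 in the knockdown samples, against 924, 776 and 781 in the controls. The groups did not overlap, and after normalization the 3 control values agreed closely, at 9.48, 9.48 and 9.46 on the log2 scale, against 8.78, 9.05 and 8.53 in the knockdown. KRT8 fell by 0.69 ± 0.12 on the log2 scale (SE, limma adjusted p = 0.000507). Its pseudogene probe above background, KRT8P9, was not called (-0.07 ± 0.10 in the fit on every probe).

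KRT18, the type I partner of KRT8, had a smaller difference that depended on the probe. The brighter probe gave signals of 214, 229 and 278 in the knockdown, against 359, 309.6 and 348 in the controls, and its normalized level fell by 0.31 ± 0.11 (log2, limma adjusted p = 0.0393). The dimmer probe gave 247, 247 and 264 in the knockdown, against 309, 292 and 271 in the controls. Brighter and dimmer refer here to the arrays of both groups together. In the knockdown the dimmer probe had the higher mean signal, 253 against 241, and in the controls the lower, 291 against 339. The probe that gave the KRT18 call was thus the brighter only through the control arrays. The groups of the dimmer probe did not overlap in signal but did after normalization, and its log2 fold change was 0.04 ± 0.10 (limma adjusted p = 0.816 in the fit on every probe, where 24.3% of 20657 probes were called). The KRT18 call ended with the mean of both probes (-0.14, limma adjusted p = 0.291), with an offset of 16 (-0.37, adjusted p = 0.0616) and without control replicate 1, 2 or 3 or TUSC4 replicate 1 or 2 (-0.35 to -0.22). Over all alternatives its limma adjusted p ranged from 0.00416 to 0.291. Of 17 probes for KRT18 pseudogenes, 4 were above background and 0 were called, with log2 fold changes of -0.24 to 0.19. The difference between the changes of KRT8 and KRT18 was not tested.

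KRT7, the type II keratin of ducts and glands, and KRT19, a small type I keratin, did not pass the background filter. KRT7 had signals of 110.5, 119 and 124 in the knockdown and 127, 121 and 115 in the controls, and was above background on 1 knockdown array and 0 control arrays. KRT19 had 109.5, 109 and 112 in the knockdown and 113, 109 and 115 in the controls, above background on 0 of the 6 arrays. Any difference for these genes was not detectable at this signal.

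NES, nestin, had the fall next in size to that of KRT17. Its signal was 158, 203 and 221 in the knockdown samples, against 427, 383 and 358 in the controls. The groups did not overlap, and the knockdown arrays varied more, with normalized log2 means of 7.31 ± 0.33 in the knockdown and 8.29 ± 0.08 in the controls (SD, n = 3 each). NES fell by 0.98 ± 0.13 (log2, SE, limma adjusted p = 8.13e-05).

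VIM, the assembly partner of nestin, was not called. The brighter VIM probe gave signals of 11601, 12554 and 13515.5 in the knockdown, against 11637, 11695 and 12136 in the controls, with overlapping groups. Its log2 fold change was 0.09 ± 0.10 (limma adjusted p = 0.570). The dimmer VIM probe gave 8019, 7744 and 9767 in the knockdown, against 7036, 6871 and 6936 in the controls, with no overlap. It rose by 0.34 ± 0.10 on the log2 scale (limma adjusted p = 0.0165 in the fit on every probe). This call ended with an offset of 16 (0.34, adjusted p = 0.0522), without normalization (0.29, adjusted p = 0.114) and without control replicate 1 (0.30, adjusted p = 0.0764), within a range of adjusted p from 0.00254 to 0.114. The log2 fold changes of VIM were positive under every alternative run, 0.03 to 0.21 for the gene and 0.29 to 0.39 for the dimmer probe. The 0.21 came with the mean of both probes and is not a value of the brighter probe alone.

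LMNB2, a B-type lamin that stays farnesylated and bound to the nuclear membrane, had signals of 1359, 1172 and 1263 in the knockdown, against 2468, 1839 and 1747 in the controls. The groups did not overlap, and LMNB2 fell by 0.41 ± 0.11 (log2, SE, limma adjusted p = 0.0141). The call ended without TUSC4 replicate 3 (-0.31, adjusted p = 0.0527) and without control replicate 1 (-0.33, adjusted p = 0.0843), within a range of adjusted p from 0.00197 to 0.0843. Leaving out control replicate 1 thus left 3 called genes of the 8: KRT17, NES and KRT8.

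LMNB1, the other B-type lamin, had signals of 533, 506 and 565 in the knockdown, against 798, 680.1 and 768 in the controls. Its values did not overlap, yet its log2 fold change of -0.23 ± 0.10 was not called (limma adjusted p = 0.101). LMNA, which encodes the A-type lamins A and C, had signals of 1061, 1088 and 1042 in the knockdown by its brighter probe, against 1797, 1354 and 1260.2 in the controls. The signals did not overlap, but the normalized values did. The log2 fold changes were -0.20 ± 0.12 by the brighter probe (limma adjusted p = 0.233) and -0.26 ± 0.11 by the dimmer one (limma adjusted p = 0.111 in the fit on every probe), whose signals were 547, 521 and 493 in the knockdown and 851, 703 and 675 in the controls. Without TUSC4 replicate 3 these became -0.09 and -0.13.

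The calls of LMNA and LMNB1 depended on the scaling between arrays. Before normalization the upper quartile of log2 signal was 6.95 to 7.10 on the knockdown arrays and 7.14 to 7.33 on the control arrays, and median scaling or no normalization lowered the median log2 fold change of all genes to -0.11 and -0.16. Median scaling gave -0.40 for LMNA (limma adjusted p = 0.0266) and -0.46 for LMNB1 (adjusted p = 0.00508), and no normalization gave -0.46 (adjusted p = 0.0237) and -0.51 (adjusted p = 0.00647). Relative to the median of all genes, these were -0.29 and -0.35 with median scaling and -0.31 and -0.36 without normalization, against -0.20 and -0.23 with the settings used. With either scaling 7 of the 8 genes were called lower, all but VIM. KRT17, NES and KRT8 were called lower under all 15 alternatives, with log2 fold changes of -1.45 to -1.11, -1.21 to -0.73 and -0.97 to -0.56.

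**Figure D2:**
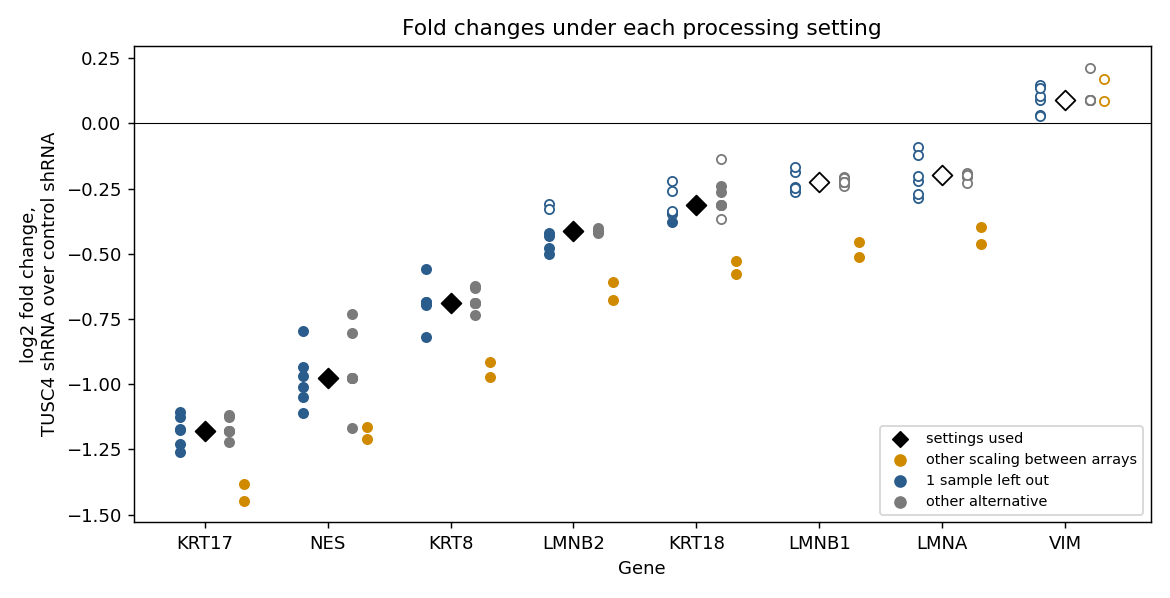
Log2 fold change of each tested gene with the settings used (diamonds) and under 15 alternatives (circles, gold for other scalings and blue for 1 sample left out), filled where the limma adjusted p was under 0.05. KRT17, NES and KRT8 stay filled throughout, while LMNB1 and LMNA are filled only under the other scalings between arrays.

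Other keratins were read beside these. Of 53 further keratin symbols, 11 had a probe that passed the filter, and 5 of these were above background on all 6 arrays: KRT10, KRT16, KRT34, KRT80 and KRT81. Among the 5, KRT16, KRT34 and KRT81 were called lower, where 15.1% of all genes above background on all 6 arrays were. With the filter used, 6 of the 11 were lower and 0 higher, beside 13.6% and 13.3% of all genes, and 5 were not called. KRT33B, which was among the lower, and KRT126P, which was not called, had however passed the filter through the control arrays alone. For this reason nothing is read from the 6 of 11 against the shares of all genes. The 53 include KRTHA5 and KRTHB6, which are older symbols, and KRT126P, a pseudogene. KRT81, a type II hair keratin, had normalized log2 values of 12.85, 13.10 and 12.77 in the knockdown, against 13.67, 13.81 and 13.77 in the controls, and fell by 0.85 ± 0.11 (limma adjusted p = 3.54e-05). KRT16, a stress keratin close in sequence to KRT17, had 6.73, 6.36 and 6.95 in the knockdown and 7.53, 7.54 and 7.65 in the controls, and fell by 0.90 ± 0.13 (limma adjusted p = 0.000106). KRT34, a type I hair keratin, was at -0.77 ± 0.10 (limma adjusted p = 5.05e-05) and KRT86, near-identical to KRT81, at -0.64 ± 0.11 (limma adjusted p = 0.000487). Whether the probes of such near-identical keratins also bind each other's RNA was not tested. KRT222 was at -0.44 ± 0.11 (limma adjusted p = 0.00874), and like KRT86 it passed background on 2 knockdown and 3 control arrays. KRT33B passed background on 0 knockdown and 3 control arrays and was at least 1.07-fold lower in the knockdown; having passed through the controls alone, it could be seen only as lower.

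KRT10, a type I keratin of differentiating epidermis, was not called (-0.18 ± 0.10, limma adjusted p = 0.210), a value that became -0.39 with median scaling and -0.45 without normalization, past the threshold in both. KRT80, a type II keratin, gave opposite values by probe. Its brighter probe had 0.18 ± 0.12 (limma adjusted p = 0.289) and the dimmer one -0.60 ± 0.11 (limma adjusted p = 0.000857 in the fit on every probe). Without TUSC4 replicate 3 the brighter probe was called higher (0.30, limma adjusted p = 0.0400), the 1 higher call among the other keratins under any alternative, within a range of adjusted p from 0.0400 to 0.908.

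**Figure D3:**
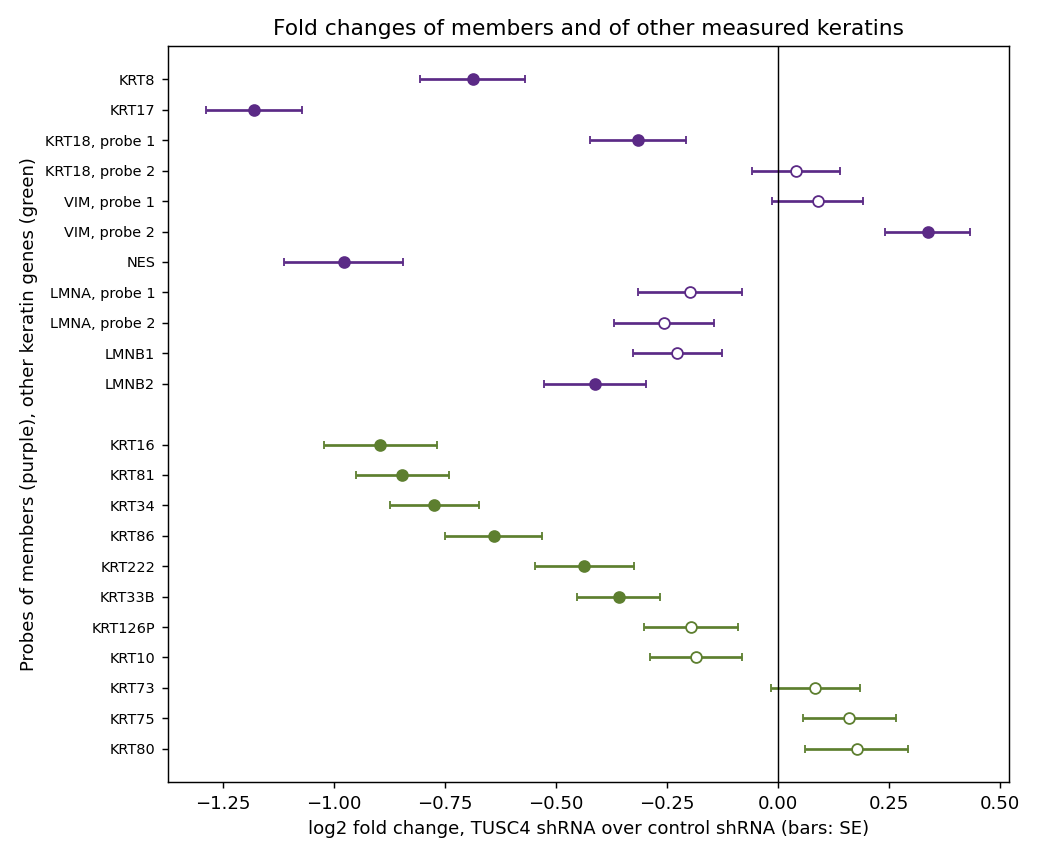
Log2 fold change (TUSC4 shRNA over control shRNA, bars are the SE) of each kept probe of the 10 symbols (purple) and of the 11 other measured keratins by their brightest probe (green), filled where the limma adjusted p was under 0.05. The filled points lie left of 0 except the dimmer VIM probe at 0.34.

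Of 13 filament genes outside the keratins and the 10 symbols, desmin, GFAP and the neurofilament genes among them, 5 were measured. Among the 5, 0 were called lower and 2 higher, beside 13.6% and 13.3% of all genes, and 3 were not called. With so few genes, nothing is read from these counts. NEFL, the light neurofilament chain, was higher by 0.33 ± 0.12 (limma adjusted p = 0.0425), and IFFO2 by 0.29 ± 0.10 (limma adjusted p = 0.0394). Each of these calls ended under 9 of the 15 alternatives, both scalings and the authors' values among them. Their limma adjusted p ranged from 0.0150 to 0.651 for NEFL and from 0.0295 to 0.463 for IFFO2.

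Of 19 genes for desmosomes and for the proteins that tie filaments to other structures, 13 were measured, with a median log2 fold change of -0.06. Of these 0 were lower and 1 was higher, beside 13.6% and 13.3% of all genes, and 12 were not called. The higher one was FAM83H, which recruits a kinase to keratin filaments, at 0.46 ± 0.10 (limma adjusted p = 0.00376), a call that ended with median scaling (0.24, adjusted p = 0.156) and without normalization (0.19, adjusted p = 0.340). Under each of those scalings 3 of the 13 were called lower, and 1 was with an offset of 16, with the mean of probes and without TUSC4 replicate 1 or 3. The desmoplakin gene DSP, which anchors keratins at desmosomes, had no probe that passed the background filter.

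Among 14 genes for inner nuclear membrane proteins and for the bridge between lamina and cytoskeleton, 12 were measured. Of these 3 were lower and 1 was higher, beside 13.6% and 13.3% of all genes, and 8 were not called. SUN2 (listed as UNC84B), which spans the inner membrane and binds lamin A, fell by 0.63 ± 0.10 (limma adjusted p = 0.000332). LEMD3 (also called MAN1) fell by 0.59 ± 0.11 (limma adjusted p = 0.000744) and TOR1AIP1 (LAP1), a lamin-binding membrane protein, by 0.47 ± 0.10 (limma adjusted p = 0.00225). The other kept probes of LEMD3 and TOR1AIP1 gave -0.53 and -0.48. SYNE2, a giant nesprin, was higher by 0.31 ± 0.11 (limma adjusted p = 0.0442), while its other kept probe gave 0.02. Under 13 of the 15 alternatives 0 genes of this list were called higher, and 5 were lower with median scaling and 6 without normalization. Of 5 enzymes that process lamins, 1 was lower, beside 13.6% of all genes. This was ICMT, which methylates the farnesylated end, at -0.68 ± 0.10 (limma adjusted p = 0.000161). ZMPSTE24, the protease that matures lamin A, was at -0.04 ± 0.10. With either of those scalings 2 of the 5 enzymes were called lower.

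Cell type markers were read beside the filament genes. Of 17 epithelial markers, 3 passed the background filter (EPCAM, MUC1 and ELF3) and 0 of these were called, beside 26.9% of all genes. Another 13 were above background on 0 of the 6 arrays, CDH1, GRHL2 and ESRP1 among them. With median scaling and without normalization 2 of the 3 were called lower, MUC1 and ELF3, the last at -0.35 (limma adjusted p = 0.0301) and -0.40 (adjusted p = 0.0336), against -0.19 with the settings used. The summed signal of all 17 was 2037 to 2307 in the knockdown samples and 2324 to 2484 in the controls. Such sums were not normalized and include genes that did not pass the filter. Before normalization the upper quartile of signal was lower on the knockdown arrays, and differences in the sums were not tested. Of 10 osteoblast markers, 6 were measured. Of these 2 were lower and 1 was higher, beside 13.6% and 13.3% of all genes, and 3 were not called (SPARC, ALPL and BGLAP). COL1A1, the main bone collagen chain, fell by 0.96 ± 0.11 (limma adjusted p = 1.64e-05) and RUNX2, the bone lineage transcription factor, by 0.68 ± 0.11 (limma adjusted p = 0.000277). SPP1, osteopontin, rose by 0.98 ± 0.10 (limma adjusted p = 4.14e-06), and its other probe gave 0.66. The brighter RUNX2 probe passed background on 2 knockdown and 3 control arrays, and the dimmer one, by contrast, gave -0.01. SP7, COL1A2, IBSP and PHEX did not pass the filter. The summed signal of the list, also not normalized, was 2405 to 2926 in the knockdown and 3769 to 4495 in the controls. This sum weighs COL1A1 most, the brightest measured marker, with normalized log2 means of 9.91 in the knockdown and 10.87 in the controls. SPARC was next, at 9.36 and 9.56, so the sum does not speak for the list as a whole. Any part of these markers in the falls of the keratins and of NES was not tested.

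Of 7 neural progenitor markers, genes that accompany nestin in the nervous system, MSI1 alone was measured. It was above background on 0 knockdown and 3 control arrays and was at least 1.22-fold lower in the knockdown, having passed the filter through the controls alone. The summed signal of all 7 was 764 to 820 in the knockdown and 822 to 855 in the controls. This sum was not normalized and came mostly from genes that did not pass the filter, with SOX1, PAX6, PROM1 and FABP7 above background on 0 arrays. Of 7 blood and endothelial markers, 2 were measured. Of these 1 was lower and 0 were higher, beside 13.6% and 13.3% of all genes. CD34, the lower one, was at -0.69 ± 0.10 by its brightest probe (limma adjusted p = 0.000109) and at -0.39 and 0.04 by its others. CD14 was not called (-0.003 ± 0.140, limma adjusted p = 0.991), with overlapping groups. The summed signal of that list was 754 to 838 in the knockdown and 914 to 948 in the controls, likewise not normalized and including genes that did not pass the filter.

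KRT7, KRT8 and KRT18 lie together on chromosome 12, and KRT8 and KRT18 share the same 50 nearest measured neighbours. The median of these neighbours was 0.04 on the log2 scale, 8 of them were lower and 4 higher, and KRT81 and KRT86 were among the lower. Relative to that median KRT8 was at -0.73 and KRT18 at -0.35. The 50 neighbours of KRT17 on chromosome 17 had a median of -0.16, 11 being lower and 2 higher, KRT16 and KRT34 among the lower, and KRT17 was at -1.02 relative to them. The neighbours of NES on chromosome 1 had a median of -0.11, and 0 of the 50 lay as low as NES, which was at -0.87 relative to them. For LMNB2 on chromosome 19 the neighbours' median was -0.11, and LMNB2 was at -0.30 relative to it. For LMNA and LMNB1 the medians were -0.10 and -0.08, and 15 of the 50 neighbours of LMNB1 were lower. The medians around VIM, KRT8 and KRT18 turned negative with median scaling (-0.14, -0.09 and -0.09), where the median of all genes was itself -0.11.

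**Figure D4:**
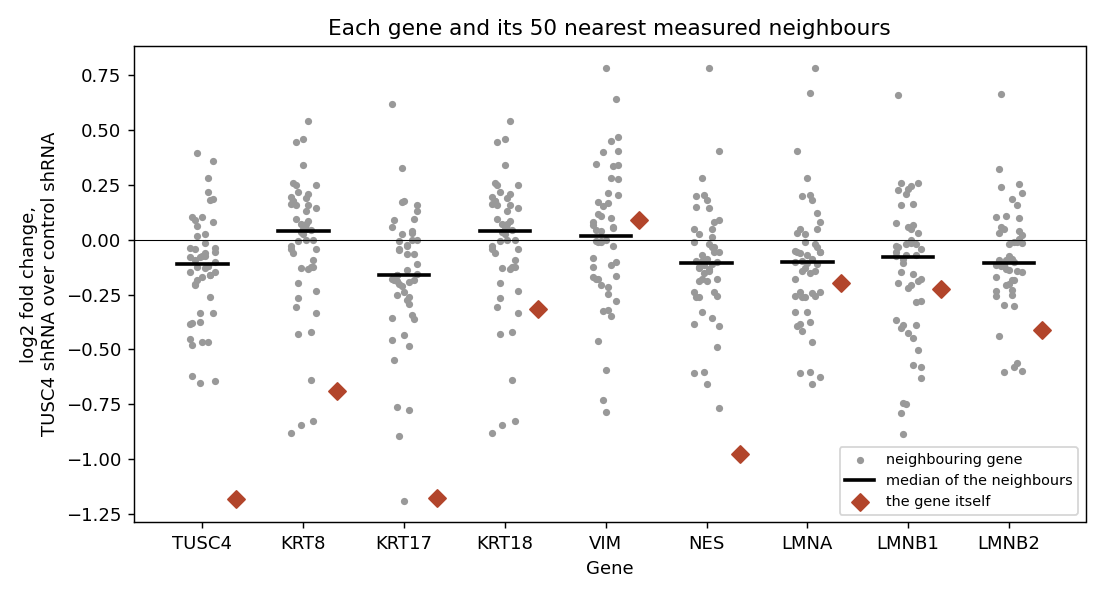
Log2 fold change (TUSC4 shRNA over control shRNA) of TUSC4 and of each tested filament gene (diamonds) beside its 50 nearest measured neighbours (grey points, with their median as a bar). NES and TUSC4 lie below all of their neighbours, KRT17 lies below all but 1, and LMNA and LMNB1 lie within the spread of theirs.

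Promoter sequence was available for 6 of the 10 genes, and those of NES and KRT8, which fell, are shown with that of VIM, which was not called. Each window runs 5′ to 3′ from 250 bases before to 50 bases after a RefSeq start (GRCh38.p14): chr1:156677358-156677657 on the minus strand for NES, chr12:52926420-52926719 on the minus strand for KRT8 and chr10:17227991-17228290 on the plus strand for VIM. Capitals mark matches on either strand to the GC box (GGGCGG), the TATA box (TATAAA), the CCAAT box (CCAAT) or the AP-1 motif (TGANTCA).
NES: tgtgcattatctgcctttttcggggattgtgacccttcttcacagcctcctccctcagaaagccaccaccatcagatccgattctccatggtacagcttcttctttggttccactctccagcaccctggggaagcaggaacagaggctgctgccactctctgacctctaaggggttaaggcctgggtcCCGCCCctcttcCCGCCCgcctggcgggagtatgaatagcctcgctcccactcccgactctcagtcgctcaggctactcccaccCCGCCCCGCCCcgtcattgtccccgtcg
KRT8: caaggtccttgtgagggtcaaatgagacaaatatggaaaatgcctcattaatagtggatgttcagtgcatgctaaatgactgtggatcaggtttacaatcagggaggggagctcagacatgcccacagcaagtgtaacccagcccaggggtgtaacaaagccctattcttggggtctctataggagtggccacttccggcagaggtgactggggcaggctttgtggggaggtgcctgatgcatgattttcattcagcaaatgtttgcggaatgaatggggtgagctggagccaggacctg
VIM: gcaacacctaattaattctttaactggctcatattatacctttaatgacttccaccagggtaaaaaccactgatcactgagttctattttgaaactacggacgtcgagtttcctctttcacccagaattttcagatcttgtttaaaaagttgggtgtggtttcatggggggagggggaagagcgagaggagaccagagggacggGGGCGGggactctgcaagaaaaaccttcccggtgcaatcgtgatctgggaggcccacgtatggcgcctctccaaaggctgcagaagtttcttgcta
NES held 4 GC boxes, with 1 overlap among them, VIM held 1 and KRT8 held 0, and none of the 3 windows matched the other 3 motifs. Over 35116 windows of the same length, 45% held a GC box, 34.6% a CCAAT box, 11.5% a TATA box and 7.71% an AP-1 motif. Of the other 3 genes, LMNB2 held 1 GC box in its window, the 3 windows of LMNA held 1, 1 and 2, and the 2 windows of LMNB1 held 0 and 4, with 1 CCAAT box each in a window of LMNA and of LMNB1. Any relation between these matches and the fold changes was not tested. A match is a stretch of letters and says nothing of which factors bind there.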

How the data were processed

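Illumina bead arrays measured total RNA of U2OS cells, 3 with TUSC4 shRNA and 3 with control shRNA, grouped by sample title. The deposited intensity is the average bead signal per probe, per the file headers, and the submitters' processing notes name BeadStudio without settings. The authors also deposited log2 values of the same arrays, with a median of 6.89, which served as an alternative. How they were background corrected and normalized is not stated in the labels.

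The signal was corrected with normexp (offset 50), quantile normalized and put on the log2 scale with limma 3.58.1 (R 4.3.3). No detection p-values were used. Background was estimated on each array as a normal distribution centred on the commonest log2 signal (kernel bandwidth 0.05) with the spread of the dimmer probes, and 20657 probes were kept, those with a one-sided p under 0.05 on 3 or more of the 6 arrays. Each of 15300 genes was represented by its brightest kept probe. Groups were compared across all genes with lmFit and eBayes, without covariates, with Benjamini-Hochberg adjustment; a separate fit took every kept probe. The fit was tested on simulated data. The number of arrays limits the precision.

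The genes described and the lists beside them were chosen with earlier results of these data known. Named in the text are TUSC4, all 10 genes with every probe, up to 3 called genes of each list with the smallest p (where none was called, the 2 brightest) and the 3 genes nearest in pattern to the gene with the largest change. KRT222, KRT33B, KRT126P, KRT86, KRT10, KRT80, MUC1, SYNE2, ZMPSTE24, DSP, SPARC, ALPL, BGLAP, CD14, the pseudogene probes and the markers at background were named after their values were seen. For genes at background throughout 1 group the fold is given as a lower limit, computed per array of that group from the larger of the gene's level and the dimmest level that passed background. Neighbours are the 50 measured genes nearest by start in a RefSeq table (GRCh38.p14), which named 12284 of the genes tested; no build is named for the array, so it gave names and order alone. Alternatives were the authors' values, no background correction, an offset of 16, median scaling, no normalization, no filter, a filter on all 6 arrays, the mean of a gene's probes, a replicate block and leaving out each sample.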

Additional observations from a re-analysis of the deposited data

How the results depend on the processing

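KRT17, NES, KRT8 and TUSC4 kept their direction and their call under all 15 alternatives, and no tested gene of the 8 changed sign. Across all genes, median scaling called 757 higher and 3472 lower and no normalization called 384 and 3514, against 2035 and 2088 with the settings used, so that 82.1% and 90.1% of calls were lower, against 50.6%. The count of the 8 filament genes called lower was 5 with the settings used and 3 to 4 when 1 sample was left out, lowest without control replicate 1. The dimmer KRT18 probe turned to -0.17 with median scaling, -0.22 without normalization and -0.00596 without TUSC4 replicate 2. TACSTD1 (EPCAM), at 0.03, turned to -0.19 with median scaling, -0.24 without normalization and -0.00987 with the mean of its probes, and KRT80 to -0.21 with the mean of its probes. The cause of these changes was not tested, other than that the scalings move the median of all genes. Deviations from the group means had correlations of 0.10, 0.05 and -0.10 between samples with the same replicate number. Pairs with different numbers ranged from -0.18 to 0.11. With 3 samples per group, these values cannot show whether samples of the same number share more than the number. With the replicate block 2020 genes were higher and 2057 lower, and 5 of the 8 filament genes stayed lower. Probes near background, NES and the dim keratins among them, have folds that the offset shrinks (NES was at -1.17 with an offset of 16), and KRT7 and KRT19 could not be compared.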
